A study of Gelatoporia subvermispora and Trametes versicolor with 24 samples.

Results

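The 121 loci described here are genes of Trametes versicolor that were already expressed in water cultures and stood 2 to 4 times higher after vanillate. A locus was included when its identifier starts with TRAVEDRAFT_, its mean level over 3 water flasks was at least 20 CPM, and the ratio (vanillate mean + 1)/(water mean + 1) was at least 2 and under 4. CPM are read counts scaled so that flasks of different depth can be compared, here with TMM factors, which correct for differences in library composition. The loci were 121 of the 6328 TRAVEDRAFT_ loci at or above that water level (1.91%), of the 14570 genes in the tables of this fungus, and of the 26883 genes of both fungi in the series. Because the vanillate and water values chose the loci, their difference is given below as a description and is not tested.

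White-rot fungi such as T. versicolor break down lignin outside the cell with secreted oxidative enzymes. Vanillate, a small aromatic acid that carries a methoxy group, is among the compounds that lignin breakdown releases, and white-rot fungi can take up such small aromatic compounds and pass their carbon into central metabolism. Aromatic rings are opened in such pathways by dioxygenases, of which the extradiol type cuts the ring beside, not between, a pair of hydroxyl groups. By its title the study addressed the catabolism of such methoxylated compounds in these fungi.

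Both groups were static cultures of the monokaryon of strain FP-101664, mycelium with a single nuclear type, grown in M7 medium with 5 g/L cellobiose at 28 °C in the dark. After 5 days ascorbic acid (5 mM) and, in ethanol, α-tocopherol (1 mM) were added to every flask. From 30 min later the vanillate group was given 2 pulses of vanillate 12 h apart, to a final 2 mM, and the water group the same volumes of water. Mycelium was collected 12 h after the second pulse, on day 6. Each group had 3 flasks, and each flask is taken as the sum of 2 libraries that share its title and number. What the second library is, the labels leave unsaid: the design text counts 6 cultivations of each fungus and the growth protocol 12. The libraries of a pair differed little more than counting error, so they were treated as repeats of 1 flask, and n is 3 on that reading. The results hold for 1 strain at 1 time, and the labels do not say whether each flask had a seed culture of its own. Flask totals were 3950984 to 13835447 gene counts, and the smallest and largest totals were both of water flasks, numbers 3 and 2.

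The deposited tables give these loci no gene name or product, and no annotation was used here, so no function, position or sequence is given for any of them. The tables name 42 genes by a symbol instead. Of those, 11 reached 20 CPM in water and 0 of the 11 had a ratio from 2 to under 4. The rule admitted only TRAVEDRAFT_ identifiers, so a gene named by a symbol could not be included at any ratio. Ratios of the symbols under 20 CPM in water are not given here. Whether laccases, peroxidases or related enzymes are among the loci without a product cannot be told. Only the pair of loci with the highest level after vanillate is given by identifier, and the others are described by rank, range and count.

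The ratios lay mostly in the lower part of the range. The median ratio was 2.37 and the middle 50% of loci ran from 2.14 to 3.04, with extremes of 2.01 and 3.99. From 2 to under 2.5 there were 70 loci (57.9%), and from 2.5 to under 3 there were 18. A further 23 lay from 3 to under 3.5 and 10 from 3.5 to under 4. As log2 fold changes from the fit over all genes, the median of the 121 loci was 1.26, beside a median of 0.001 over all genes tested.

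Levels in water, which the rule bounded only from below, ran from 20.01 to 1403 CPM with a median of 70.0 CPM, close to the 75.9 CPM of the 6020 loci at or above the same floor whose ratio was 0.5 to under 2. With vanillate the 121 loci ran from 42.6 to 3609 CPM with a median of 176.6 CPM, against 71.7 CPM for those 6020. By level in water, 46 of the 121 lay from 20 to under 50 CPM, 35 from 50 to under 100, 20 from 100 to under 200, 11 from 200 to under 500 and 9 at 500 CPM or more. The median ratio in these 5 bins was 2.383, 2.301, 2.352, 2.482 and 2.467. The loci made up 2.26%, 1.88%, 1.43%, 1.52% and 2.85% of all TRAVEDRAFT_ loci in the same bins, so they occurred in each bin. Their highest water level was 1403 CPM, and that of the 6020 was 6943 CPM.

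**Figure D1:**
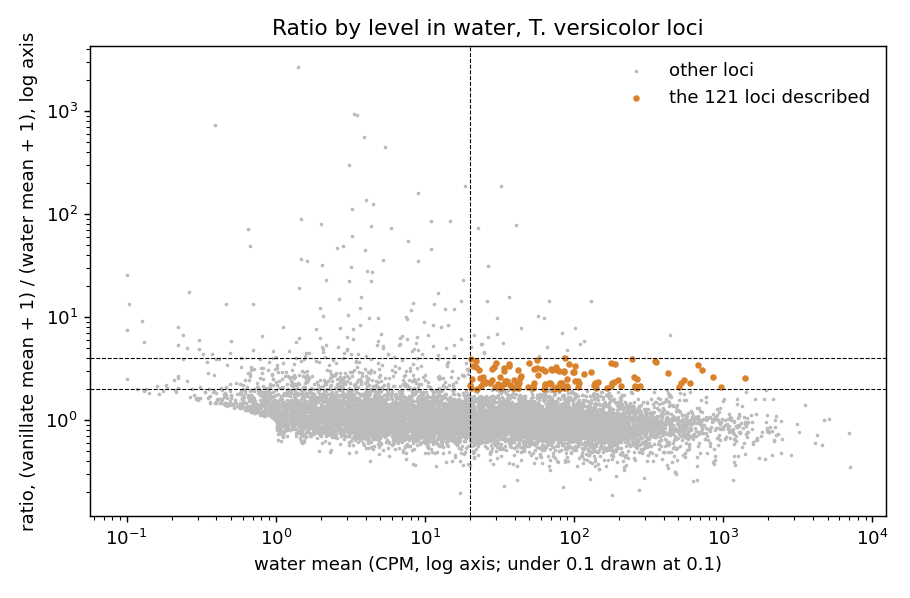
Each point is a TRAVEDRAFT_ locus with a mean of at least 1 CPM in either group and any counts in water. The horizontal log axis gives its water mean in CPM, with means under 0.1 drawn at 0.1. The vertical log axis gives its ratio of vanillate to water. Dashed lines mark the limits of 20 CPM and of ratios 2 and 4, and the 121 orange points fill the box between them, spread from 20.01 to 1403 CPM.

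Most loci of this ratio range were too low in water to be included. In all, 429 TRAVEDRAFT_ loci had a ratio from 2 to under 4, and 308 of them were under 20 CPM in water. At the floor, 4 of the 121 had a water mean under 21 CPM, the lowest at 20.01, 20.38 and 20.41 CPM, and 5 loci of the same ratio range fell short by less than 1 CPM, the nearest at 19.75, 19.56 and 19.38 CPM. At the lower ratio limit 23 of the 121 were under 2.1, starting at 2.009, 2.011 and 2.012, and 21 loci lay from 1.9 to under 2, the nearest at 1.995, 1.995 and 1.994. The upper limit was sparsely filled, with the last loci inside at 3.99, 3.93 and 3.88 and the first outside at 4.08, 4.16 and 4.48.

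The locus with the highest level was TRAVEDRAFT_152955. It stood at 1439, 1487 and 1284 CPM in water flasks 1 to 3 and at 3698, 3787 and 3342 CPM in vanillate flasks 1 to 3. The lowest vanillate flask was 2.248 times the highest water flask, so the groups did not come near each other. Its means were 1403 ± 106 CPM in water and 3609 ± 235.6 CPM with vanillate (SD, n = 3), a ratio of 2.57 and a log2 fold change of 1.38 (SE 0.12), resting on 34695 and 66276 counts. Among all genes it ranked 60th in water and 11th with vanillate.

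TRAVEDRAFT_56779 came next and changed by more. It was at 733.4, 620.5 and 680.1 CPM in the water flasks and at 2480, 2160 and 2267 CPM in the vanillate flasks. Every vanillate flask was at least 2.945 times the highest water flask. The means were 678.0 ± 56.5 and 2302 ± 162.7 CPM (SD, n = 3), a ratio of 3.39 and a log2 fold change of 1.78 (SE 0.12), on 15842 and 42422 counts. It moved from rank 203 to rank 28 among all genes.

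The next 8 loci by level with vanillate had means of 1213 to 2224 CPM there and 349.4 to 963.7 CPM in water. Their ratios were 2.102 to 3.766. The tightest of them after vanillate was the fifth by level, at 2043, 2003 and 2033 CPM in the vanillate flasks against 1071, 940.8 and 879.0 CPM in water. The widest was the sixth, at 1691, 1007 and 1408 CPM against 643.6, 637.1 and 517.5 CPM. Vanillate flask 2 was the low one for the sixth locus, and it still lay 1.56 times above the highest water flask.

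**Figure D2:**
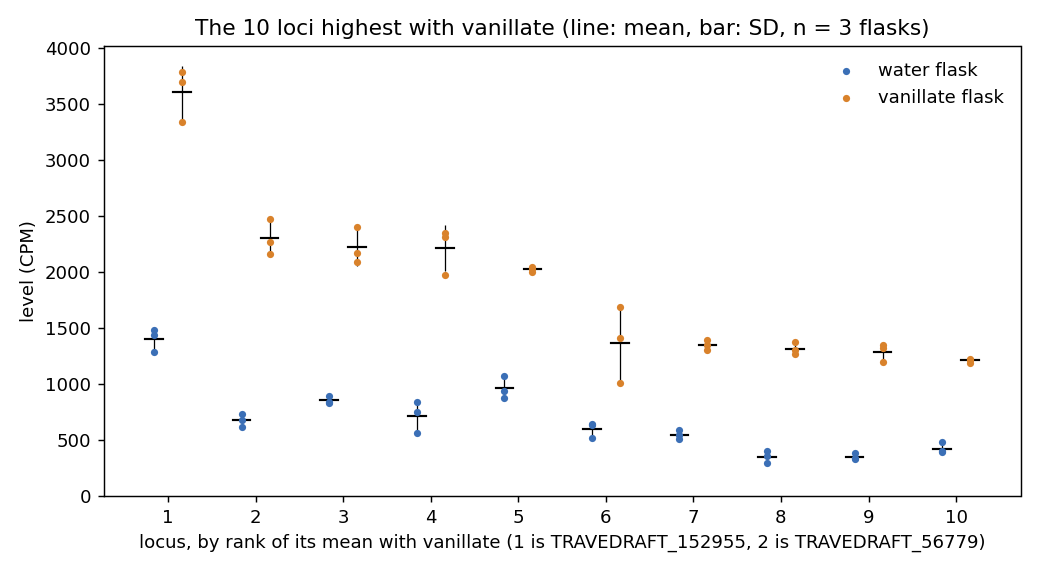
Level in CPM of the 10 loci with the highest vanillate mean, with a point for each flask, a line for the mean and a bar for the SD over 3 flasks. No vanillate point of any of these loci lies as low as one of its own water points, and only the sixth locus spreads widely between vanillate flasks, from 1007 to 1691 CPM.

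Together the 121 loci took 1.72%, 1.73% and 1.61% of gene counts in water flasks 1 to 3 and 4.58%, 4.29% and 4.23% in vanillate flasks 1 to 3. The means were 1.69% ± 0.0675 and 4.37% ± 0.188 (SD, n = 3), a share that had to rise because the loci were chosen for rising. In bulk mycelium more RNA per cell and more cells with that RNA cannot be told apart. The 10 highest loci held 41.0% of the summed level of the 121 in water and 43.1% with vanillate. In water 1 of the 121 was among the 100 most abundant genes and 20 among the first 1000, and with vanillate these counts were 11 and 52.

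Set beside loci of larger ratios, the 121 were many and abundant before treatment. At the same water floor, 19 loci had a ratio from 4 to under 8 and 11 a ratio of 8 or more. The median level in water was 44.0 CPM for the 19 and 36.5 CPM for the 11, against the 70.0 CPM of the 121. With vanillate the medians were 245.3, 864.9 and 176.6 CPM in the same order. In share of gene counts, the 19 went from 0.143% ± 0.0087 in water to 0.863% ± 0.0635 with vanillate, and the 11 from 0.0536% ± 0.00374 to 1.74% ± 0.201 (SD, n = 3). All TRAVEDRAFT_ loci with a ratio of at least 2, 598 in number, gained 94819 CPM in sum. Of that gain 28.6% fell to the 121, 25.5% to the 30 loci with larger ratios above the floor, and 45.9% to loci under the floor. All these groups were chosen on the same flasks, and their differences were not tested.

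Every one of the 121 loci was higher in all 3 vanillate flasks than in all 3 water flasks, where 20.7% of TRAVEDRAFT_ loci at or above the floor and 25.3% of all genes tested showed this. In the edgeR quasi-likelihood fit over all 11032 genes tested, 121 of 121 were called higher at an adjusted p under 0.05, and over all genes 20.1% were. Nothing is read from either count, since the rule used the same values. The distance between the groups varied: the lowest vanillate flask was 1.05 to 3.46 times the highest water flask, with a median of 2.099. It was at least 2 times for 71 loci and at least 1.5 times for 115. Of all loci at or above the floor, these included, 101 (1.6%) and 224 (3.54%) reached these distances. When each vanillate flask was set against each water flask, 67 loci had a ratio of at least 2 in all 9 pairs, and 18 loci reached it in 5 pairs or fewer. The pair counts were not taken over other loci. Limits on the ratio made wide distances likely, so the distances and pair counts only describe the 121.

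**Figure D3:**
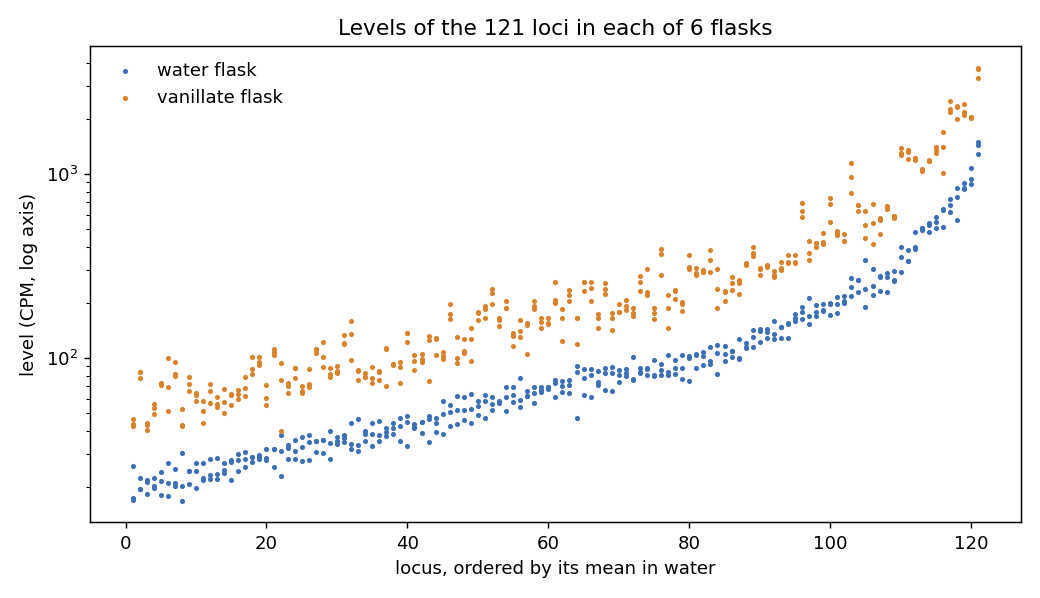
Level in CPM on a log axis of each of the 121 loci, ordered from left to right by its mean in water, with a blue point for each water flask and an orange point for each vanillate flask. The orange points lie above the blue ones for every locus, and the size of the gap on the log axis is held within limits by the rule, which fixed the ratio at 2 to under 4.

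The locus where the groups came closest was low and variable. It was at 38.1, 31.3 and 22.8 CPM in water and at 75.6, 39.9 and 93.8 CPM with vanillate, so that vanillate flask 2 nearly met water flask 1. Its ratio was 2.23 (log2 fold change 1.18, SE 0.32), and its SD was 39.3% of the mean between vanillate flasks, the widest of the 121. At the other end, the locus most alike between vanillate flasks stood at 93.1, 92.6 and 91.6 CPM there and at 38.6, 44.6 and 41.6 CPM in water. The locus with the highest ratio, 3.99, was at 85.7, 92.7 and 80.4 CPM in water and at 366.6, 392.7 and 283.1 CPM with vanillate.

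The rule set no limit on the spread between flasks of 1 group, but it used the means of the same flasks. Loci that vary more can cross its limits more easily, so the spreads are only described. The SD between water flasks was 9.90% of the mean at the median of the 121 loci, and 8.33% at the median of the 6020 loci of ratio 0.5 to under 2. Between vanillate flasks the medians were 6.66% and 7.00%. Levels with vanillate were unlike, at medians of 176.6 and 71.7 CPM, and the bins below go by water level and do not match them. The upper quartile was 14.5% against 12.5% in water and 12.1% against 10.5% with vanillate. An SD of 20% of the mean or more was found for 8 of the 121 in water, for 11 with vanillate, and for 17 in either group. The same counts were not taken over the 6020. In the 5 bins of water level given above, the median spread in water was 12.1%, 9.69%, 8.58%, 11.4% and 7.55% for the 121. For the 6020 it was 9.82%, 7.85%, 7.22%, 7.19% and 10.3%, so the order reversed at 500 CPM or more. With vanillate it was 6.80%, 8.39%, 6.05%, 4.88% and 6.53% against 8.76%, 6.94%, 5.79%, 5.83% and 6.45%, in no single direction. From the lowest ratios to the highest, in the 4 steps of 70, 18, 23 and 10 loci given above, the median spread was 10.1%, 8.46%, 11.2% and 10.0% in water and 6.49%, 6.31%, 7.73% and 8.87% with vanillate, with no clear trend in water.

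**Figure D4:**
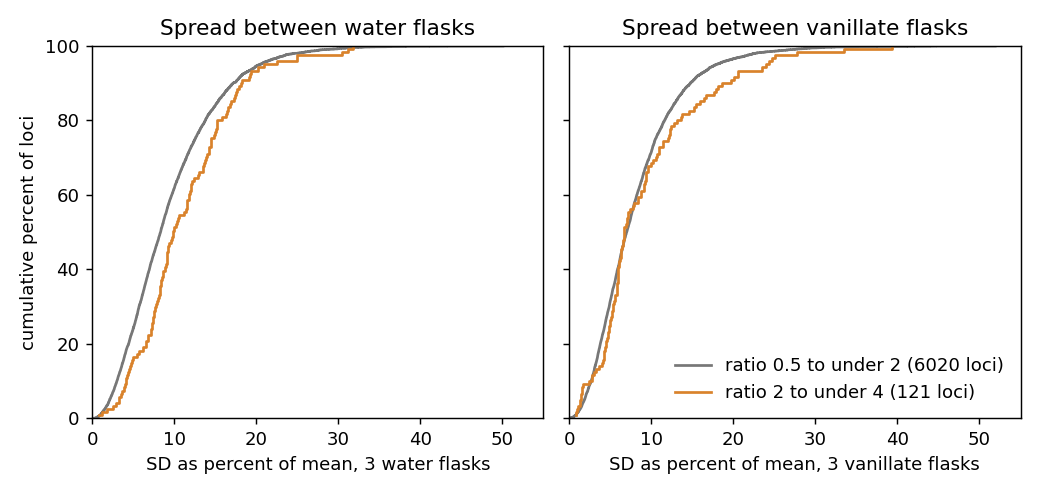
Cumulative percent of loci by SD as percent of the mean over 3 flasks, water at left and vanillate at right, for the 121 loci (orange) and for the 6020 loci of ratio 0.5 to under 2 (grey). In water the orange curve lies mostly to the right of the grey one, with medians of 9.90% and 8.33%, while with vanillate the medians nearly coincide at 6.66% and 7.00% and the orange curve lies to the right at larger spreads. With vanillate the 121 stood at higher levels than the 6020, so the right panel compares loci of unlike level.

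The flasks of a group were not alike for these loci. Water flask 3 was the lowest water flask for 58 of the 121 loci (47.9%) and the highest for 13 (10.7%), whereas among the 6020 loci of ratio 0.5 to under 2 it was the lowest for 27.5% and the highest for 27.1%. Vanillate flask 1 was the highest vanillate flask for 65 of the 121 (53.7%) and the lowest for 17 (14.0%), against 27.5% and 31.7% of the 6020. These shifts were small in size: the median deviation from a locus's own group mean was -0.058 on the log2 scale in water flask 3 and 0.048 in vanillate flask 1. Water flask 3 had the fewest gene counts of the 6 flasks and vanillate flask 1 the fewest of its group, 5185591, and the part of depth in this order was not tested. The rule used the means of these same flasks, so a low water flask or a high vanillate flask itself helped a locus in. Loci of 1 flask may also vary together, so the counts beside the 6020 only describe the 121.

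By median deviation the vanillate flasks of the 121 loci ran from flask 1 (0.048) to flask 2 (-0.012) and flask 3 (-0.028), and flasks 2 and 3 were the lowest equally often, for 52 loci each. The 19 loci of ratio 4 to under 8 had the same order, with 0.070, 0.038 and -0.090. For these 19, flask 1 was the highest for 8, flask 2 for 9 and flask 3 for 2. The 11 loci of ratio 8 or more had flask 2 first, with 0.049, 0.107 and -0.197 in flasks 1 to 3, and flask 2 was the highest for 7 of them. Relative to its own water mean, the median locus of the 121 stood at 2.49 in vanillate flask 1, 2.43 in flask 2 and 2.34 in flask 3. In these flasks 115, 100 and 110 loci respectively stood at 2 or more. Whether the order differed between these groups of loci was not tested.

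**Figure D5:**
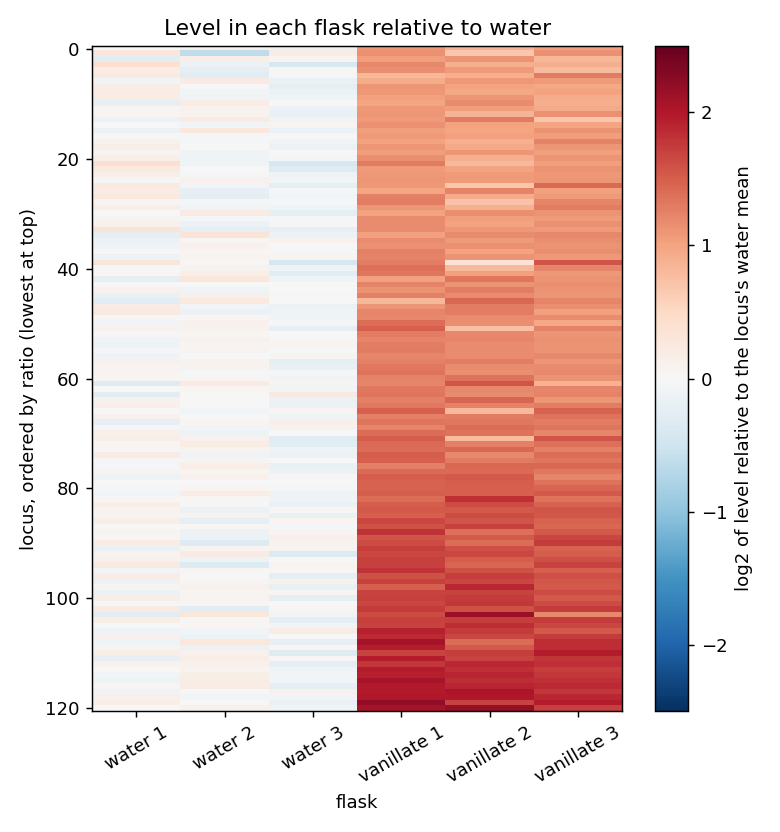
Each row is 1 of the 121 loci, ordered by ratio, and each column a flask; colour gives the log2 of (level + 1) relative to (water mean + 1) of that locus. The water columns stay near 0 and the vanillate columns are positive in every row, with a few rows pale in vanillate flask 2, where the lowest relative level was 1.29.

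Each library of a pair alone gave ratios near those of both together, which include it. The ratios of the 2 libraries were not set against each other. From the first library of each flask alone, 110 of the 121 loci had a ratio from 2 to under 4, 11 were under 2 and 0 reached 4, with extremes of 1.74 and 3.96. From the second library alone 112 were inside the range, 7 were under 2 and 2 reached 4, with extremes of 1.87 and 4.19. The median distance of a locus's ratio from that of both libraries together was 0.039 on the log2 scale for the first and 0.031 for the second. The largest distance was 0.222 for the first and 0.226 for the second. If, as assumed here, both libraries of a pair come from 1 flask, these distances reflect counting error and not the spread between cultures. The locus with the fewest reads had 462 counts over the 3 water flasks and the median locus had 1654.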

How the data were processed

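The authors deposited raw counts of reads per gene for each library, not normalized. FastQC, STAR and HTSeq were used, per the submitters' processing notes; build, annotation, counting options and strand setting are not given in these sources, so reads shared by near-identical, overlapping or antisense genes could have been lost or split. Lines of unassigned reads were left out, and genes took 74.7% to 76.4% of reads per flask. Libraries with the same fungus, treatment and number in their titles (1 title is irregular) had a chi-square per degree of freedom of 1.01 to 1.08 in 6 pairs, against 2.31 to 8.77 in 24 pairs of different flasks of a group, and were summed as repeats of 1 flask, which the labels do not state. Levels are CPM with TMM factors over all genes. The fit over all genes used edgeR 4.0.16 in R 4.3.3: filterByExpr (min.count 10, min.total.count 15), TMM on the genes kept, and the two-sided robust quasi-likelihood F test with Benjamini-Hochberg adjustment, which called 2222 of 11032 genes higher and 2042 lower. Standard errors (SE) were derived from F and the log2 fold change. The steps were tested on simulated counts. Adjusted p-values reflect only how these flasks vary, which may be technical. The loci and lists were chosen with earlier results of these data known; without product names the planned functional lists matched no locus, and by the rule for naming genes only the 2 loci highest with vanillate carry an identifier. Other loci singled out were chosen after their values were seen. Alternatives were other scalings, filters and libraries, DESeq2 1.42.0, a replicate block and leaving out each flask.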

Additional observations from a re-analysis of the deposited data

How the results depend on the processing

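The count of 121 loci was 84 to 156 over 14 alternatives, the extremes coming from water floors of 40 and 10 CPM. Leaving out a flask gave 109 to 134 loci, of which 103 to 114 were among the 121. With TMM factors taken after the filter on low counts, an alternative chosen after seeing the data, it was 124, of which 119 were shared. With library totals 118 loci were found, all among the 121. Of the 121, 120 or 121 were called higher under each of 14 alternatives, the DESeq2 Wald test among them. Over all genes 1621 to 2252 were called higher under these alternatives, 1846 of 11032 (16.7%) by the DESeq2 test. The rule used the same contrast, so nothing is read from the count among the 121. Their median log2 fold change of 1.26 was 1.23 to 1.33 on leaving out a flask, and moved by more than 1 SD only without water replicate 1 (1.33). That SD, 0.044, was over 3 vanillate flasks, of the loci's median log2 level relative to their water mean. It holds no spread between water flasks. Higher and lower together, 3283 to 4389 of all genes were called. Deviations of same-numbered water and vanillate flasks correlated at -0.069, 0.206 and -0.087 over 6427 genes, and those of differently numbered flasks at -0.303 to 0.307. The same-numbered values lie within that range, so they neither show nor exclude pairing by replicate number. With the replicate block the median of the 121 was 1.27 (log2).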
